A study of Rattus norvegicus with 19 samples.

Results

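The renin-angiotensin-aldosterone genes measured here were Ace, Agt, Agtr1a, Agtr2, Nr3c2 and Mas1. They were picked by symbol from the count files, and all 6 were found among the 17455 gene symbols there. Agtr2 had too few counts for a test, and the other 5 were tested.

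Angiotensinogen is cleaved to a short peptide, angiotensin-converting enzyme trims that peptide to angiotensin II, and angiotensin II raises blood pressure and the release of aldosterone through its type 1 receptor. A further receptor, Mas, binds a shorter angiotensin peptide with opposing actions on vessels, and aldosterone acts through the mineralocorticoid receptor, which in heart muscle also binds glucocorticoids. Blockers of this system are long-standing treatments of high blood pressure and heart failure.

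The study asked how empagliflozin (EMPA, an inhibitor of the glucose transporter SGLT2) and pirfenidone (PFD, an antifibrotic drug), alone or together, act on hearts of rats with heart failure with preserved ejection fraction (HFpEF). Gene expression was measured by RNA sequencing of 19 heart libraries in 7 groups. Sprague-Dawley rats aged 24 weeks at the start, with "Wildtype" as their strain label, received L-NAME, which blocks nitric oxide synthases, at 0.5 g/L in the water they drank and a diet with 60% of its energy from fat for 5 weeks, while controls drank water without L-NAME. Drugs were given by gavage for 4 weeks from then on. By the study's text, the controls of both weeks were on normal chow, so diet and L-NAME cannot be told apart in comparisons with controls.

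Hearts taken at week 5 made up the groups control 5w and HFpEF, with 3 libraries each. At week 9 the groups were control 9w, untreated (HFpEF rats given phosphate-buffered saline), EMPA (0.35 g/kg a day), PFD (0.3 g/kg a day) and EMPA + PFD (both). There were 3 libraries each in control 9w, untreated and EMPA + PFD, and 2 each in EMPA and PFD. Whether L-NAME and the diet went on after week 5 is not stated in the labels, while the study's discussion speaks of an induction of 9 weeks. The tissue label was heart, and by the study's methods RNA was taken from left ventricles of males. Total counts ran from 7430539 to 13017754 per library, with a median of 9951011. Levels are in CPM, counts scaled by library size, after TMM normalization, and errors of group means are SD over hearts.

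Some libraries stood apart before any comparison. Every heart was labelled male, while the protocol in the labels speaks of equal numbers of both sexes in each group. Y-linked Eif2s3y was absent (0 counts) from 7 libraries, namely PFD and untreated throughout and replicates 1 and 3 of HFpEF, and ranged between 613 and 1321 counts in the 12 that had it. Only HFpEF mixed both kinds, so in the other groups this split and a group difference cannot be told apart. A covariate for Eif2s3y counts therefore rests on HFpEF, and where HFpEF is compared with control 5w, control 9w, EMPA or EMPA + PFD it leaves HFpEF replicate 2 as the only library on its side. The histocompatibility gene RT1-CE16, chosen after its values were seen, stayed at 3 counts or fewer in control 5w, EMPA and HFpEF (8 libraries) but reached 308 to 922 in the remaining 11. That split followed whole groups, so it cannot be told apart from them. Whether the rats came from different cohorts is not known here. Among the member calls below, Agt in control 9w against control 5w and Mas1 in EMPA + PFD against EMPA lie across this split. So do Agtr1a and Nr3c2 in EMPA + PFD against HFpEF, while Nr3c2 in EMPA + PFD against control 9w does not.

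Each gene was tested in edgeR with the quasi-likelihood F test over 12388 genes and called at a Benjamini-Hochberg adjusted p under 0.05 with a log2 fold change of at least 1 in either direction, the thresholds of the study. Standard errors (SE) and 95% confidence intervals belong to log2 fold changes. The p-values measure the spread between these hearts. Several comparisons share libraries, so their values are not independent.

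Tested over all 7 groups at once, Nr3c2, Agtr1a and Mas1 differed, with edgeR adjusted p of 0.00428, 0.00989 and 0.0114 from the quasi-likelihood F test. That was 3 of 5 members, while 50.3% of all tested genes passed the same test. Ace and Agt did not pass, with edgeR adjusted p of 0.110 and 0.225.

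The onset of disease was asked by HFpEF against control 5w, where edgeR called 0 of 5 members and 8.69% of all tested genes, with 0 members at an unadjusted p under 0.05 and 0 called by DESeq2 or by limma voom. In the comparison of controls over time, control 9w against control 5w, edgeR called 1 of 5 members and 14.7% of all genes, and DESeq2 and voom called 1 member each. Untreated against control 9w asked how disease stood at the end, and there edgeR called 0 of 5 members and 0.912% of all genes, with 0 members at an unadjusted p under 0.05 and 0 by DESeq2 or voom.

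Treatment was compared with untreated hearts. For EMPA + PFD, edgeR called 0 of 5 members and 3.82% of all genes, with 1 member at an unadjusted p under 0.05 and 0 by DESeq2 or voom. For EMPA alone, edgeR called 0 of 5 members against 0.0404% of all genes, with 1 member at an unadjusted p under 0.05 and 0 by DESeq2 or voom. For PFD alone, edgeR called 0 of 5 members against 0.00807% of all genes, with 0 members at an unadjusted p under 0.05 and 0 by DESeq2 or voom. Whether the drugs together differed from the sum of each was asked by their interaction, where edgeR called 0 of 5 members and 0.00807% of all genes, with 1 member at an unadjusted p under 0.05 and 0 by DESeq2 or voom.

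The combined treatment was also set against each drug alone. Against EMPA, edgeR called 1 of 5 members and 3.44% of all genes. Against PFD, edgeR called 0 of 5 members and 0% of all genes, with 0 members at an unadjusted p under 0.05 and 0 by DESeq2 or voom. Set against healthy hearts of the same week, EMPA + PFD against control 9w, edgeR called 1 of 5 members and 12.1% of all genes. Against the state before treatment, EMPA + PFD against HFpEF, it called 2 of 5 members and 22.7% of all genes. Untreated against HFpEF, the course without drugs, had 0 of 5 members called by edgeR against 0.194% of all genes, with 2 members at an unadjusted p under 0.05 and 1 called by DESeq2 and 1 by voom. The difference between the disease effects at week 9 and week 5 gave 0 of 5 members by edgeR against 12% of all genes, with 1 member at an unadjusted p under 0.05, 0 called by DESeq2 and 1 by voom.

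The shares of all genes rested on single libraries in several comparisons. With 1 library left out at a time, the 113 genes called in untreated against control 9w became 7 without control 9w replicate 2, 14 without untreated replicate 1 and 412 without untreated replicate 2. They became 2 with the covariate for Eif2s3y counts, which rests on HFpEF. In HFpEF against control 5w, 1076 genes became 429 with only the libraries compared. The 473 genes in EMPA + PFD against untreated became 59 without EMPA + PFD replicate 2, 83 without untreated replicate 2 and 910 without untreated replicate 1, and 5 with only the libraries compared. In EMPA + PFD against EMPA, 426 genes became 7 without EMPA replicate 2, 73 without EMPA replicate 1 and 77 without EMPA + PFD replicate 2. In untreated against HFpEF, 24 became 4 without HFpEF replicate 1 and 931 without untreated replicate 2. The 1489 genes whose disease effect differed between weeks became 877 without untreated replicate 1 and 2249 without untreated replicate 2, and the 1495 in EMPA + PFD against control 9w became 973 without EMPA + PFD replicate 2. At most 15 genes were called in such fits in EMPA against untreated (without EMPA replicate 2), 2 in PFD against untreated (without control 5w replicate 1), 7 in EMPA + PFD against PFD (without EMPA + PFD replicate 1) and 10 in the interaction (without EMPA replicate 2).

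Agt encodes angiotensinogen, the precursor of the angiotensin peptides. Its libraries had 1.98, 2.25 and 1.91 CPM in control 5w, 3.50, 3.69 and 9.97 in control 9w, and 1.69, 8.28 and 2.32 in untreated. Control 9w replicate 3 and untreated replicate 2 stood far above the others of their groups, and all 3 libraries of control 9w lay above all 3 of control 5w. The counts behind these values were small, from 13 to 102 per library. In HFpEF, Agt had 2.87, 5.96 and 2.50 CPM, in EMPA 3.46 and 3.89, in PFD 4.27 and 4.53, and in EMPA + PFD 2.48, 1.55 and 2.72.

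In control 9w against control 5w, Agt rose by a log2 fold change of 1.48 (SE 0.55, 95% confidence interval 0.30 to 2.66, edgeR adjusted p = 0.0497). That call held in 5 of 19 fits that each left out 1 library, over which the edgeR adjusted p ran from 0.0138 to 0.282. Without control 9w replicate 3 the log2 fold change was 0.81, with an edgeR adjusted p of 0.282. It was also lost without control 5w replicate 1 (1.47), replicate 2 (1.56) or replicate 3 (1.44), without control 9w replicate 2 (1.72), and without HFpEF replicate 1 or 3 (1.48 each), either EMPA library (1.48 each), either PFD library (1.49 each) or any EMPA + PFD library (1.49 each). Under upper-quartile scaling and with no filter on low counts, Agt was likewise not called, at a log2 fold change of 1.48 each (edgeR adjusted p of 0.0584 and 0.0618). With voom Agt was at 0.96 and not called, on the fold threshold alone (voom adjusted p = 0.00322). Against EMPA + PFD, control 9w did not differ in Agt by this test (log2 fold change of EMPA + PFD −1.34, edgeR adjusted p = 0.0763), though without untreated replicate 2 the edgeR adjusted p was 0.0237, within a range of 0.0236 to 0.398 over the alternatives.

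By mean level of Agt, the groups stood in the order control 9w, PFD, untreated, HFpEF, EMPA, EMPA + PFD and control 5w. Neighbours in that order overlapped in their libraries except EMPA and EMPA + PFD. The means ran from 2.05 ± 0.180 CPM in control 5w (SD, n = 3) to 5.72 ± 3.68 CPM in control 9w (SD, n = 3).

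The libraries with the highest Agt in control 9w and in untreated also had the highest summed level of 8 markers of atrial and conduction tissue. That sum was 5211, 194 and 23384 CPM in control 9w, 61.8, 14909 and 500 in untreated, and 3351, 6192 and 4721 in control 5w. Nppa was the most abundant of these markers, none was at 0 in all libraries, and 3 of the 8 were called in control 9w against control 5w (2 higher and 1 lower). HFpEF replicate 2, which had the highest Agt of its group, had the lowest sum there, 278 CPM against 2093 and 1975 in replicates 1 and 3. In control 9w against control 5w 6 of 8 endothelial markers were higher, with a median log2 fold change of 1.15, and 6 of 8 fibroblast markers were lower. The endothelial sums, in which Vwf was the most abundant and none of the markers was at 0, were 1848, 1512 and 1738 CPM in control 5w and 3914, 3994 and 3443 in control 9w. The part of these markers in the result was not tested.

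Ace encodes angiotensin-converting enzyme, which makes angiotensin II and is made by endothelium, among other cells. Its level was 19.2, 62.1 and 55.1 CPM in control 5w, 96.4, 41.0 and 67.6 in HFpEF, 63.8, 64.1 and 84.9 in control 9w, and 43.2, 62.8 and 40.1 in untreated. In EMPA it was 17.8 and 50.0 CPM, in PFD 27.2 and 35.8, and in EMPA + PFD 29.6, 37.2 and 33.0. All 3 EMPA + PFD libraries lay below every library of HFpEF, control 9w and untreated, whereas replicate 1 of control 5w, of EMPA and of PFD was lower still.

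No comparison of Ace passed the test. EMPA + PFD had a log2 fold change of −1.09 against control 9w (SE 0.42, 95% confidence interval −1.99 to −0.20, edgeR adjusted p = 0.0562) and of −1.04 against HFpEF (SE 0.42, 95% confidence interval −1.93 to −0.15, edgeR adjusted p = 0.0528). DESeq2 called both (log2 fold change −1.08 and −1.01, DESeq2 adjusted p of 0.0326 and 0.0365). With single libraries left out, edgeR called Ace against control 9w without control 5w replicate 1 (−1.08), HFpEF replicate 1 or 2 (−1.09 each) or either EMPA library (−1.09 each). It called Ace against HFpEF without control 5w replicate 1 (−1.02), HFpEF replicate 2 (−1.30) or either EMPA library (−1.04 each). Without HFpEF replicate 1 the value against HFpEF was −0.71, and without control 9w replicate 3 that against control 9w was −0.94. Both lay under the fold threshold. Ace also passed against both groups under upper-quartile scaling (−1.16 and −1.15) and with only the libraries compared (−1.07 and −1.01). It passed against HFpEF alone with no filter (−1.07), with the filter of 10 counts (−1.07) and with the replicate block (−1.11), and against control 9w alone with the covariate for Eif2s3y counts (−1.09). With that covariate, thus against HFpEF replicate 2 alone, the value was −0.30. In HFpEF against control 5w the log2 fold change was 0.59 (edgeR adjusted p = 0.321), in untreated against control 9w −0.54 (0.521) and in EMPA + PFD against untreated −0.55 (0.363). The group means of Ace fell in the order control 9w, HFpEF, untreated, control 5w, EMPA, EMPA + PFD and PFD, and the libraries of all neighbours overlapped.

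Markers of endothelial cells, of which Vwf was the most abundant and none was at 0 in all libraries, moved with Ace between EMPA + PFD and control 9w. Of 8 markers 5 were lower in EMPA + PFD, and the sums were 2168, 1830 and 1920 CPM against 3914, 3994 and 3443. In HFpEF the sums were 1736, 3690 and 2908, lowest in replicate 1, which was the highest in Ace. Of the atrial and conduction markers 4 of 8 were lower and 1 was higher in EMPA + PFD against control 9w (median log2 fold change −6.13), with sums of 119, 440 and 188 CPM in EMPA + PFD. Control 9w replicate 3 and untreated replicate 2, the highest of their groups in Ace, had the 2 highest atrial and conduction sums. Their part in the result was not tested.

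Agtr1a encodes the type 1 receptor of angiotensin II. Its libraries had 7.91, 20.8 and 17.7 CPM in control 5w and 35.2, 9.90 and 14.5 in HFpEF. At week 9 they had 9.14, 7.50 and 5.18 in control 9w, 6.96, 8.20 and 4.32 in untreated, 4.66 and 6.19 in EMPA, 5.81 and 4.53 in PFD, and 5.08, 3.95 and 7.73 in EMPA + PFD. HFpEF replicate 1 stood above all other libraries, no library of week 9 was above 9.14 CPM, and control 5w replicate 1 was the one library of week 5 within their range.

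Agtr1a fell in EMPA + PFD against HFpEF, with a log2 fold change of −1.83 (SE 0.46, 95% confidence interval −2.81 to −0.84, edgeR adjusted p = 0.00611), and all 3 EMPA + PFD libraries lay below all 3 HFpEF libraries. The call held in 19 of 19 fits with 1 library left out, with edgeR adjusted p from 0.00323 to 0.0445, and without HFpEF replicate 1 the log2 fold change was −1.12. With the covariate for Eif2s3y counts, which compares EMPA + PFD with HFpEF replicate 2 alone, it was −0.82 and not called (edgeR adjusted p = 0.290, the highest of the alternatives, whose lowest was 0.000582). Untreated against HFpEF had a log2 fold change of −1.61 (SE 0.46, edgeR adjusted p = 0.0901), and EMPA + PFD against untreated one of −0.22 (95% confidence interval −1.21 to 0.78, edgeR adjusted p = 0.764). DESeq2 and voom did call untreated against HFpEF (log2 fold change −1.61 and −1.62), and edgeR called it without HFpEF replicate 2 (−1.93) or untreated replicate 2 (−1.82), while without HFpEF replicate 1 it was −0.90.

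Between controls of week 9 and week 5, Agtr1a had a log2 fold change of −1.09 (SE 0.45, 95% confidence interval −2.06 to −0.13, edgeR adjusted p = 0.0744) and did not pass. Without control 5w replicate 1 it was −1.39 and passed, as it did without HFpEF replicate 1 or replicate 2 (−1.09 each). The covariate for Eif2s3y counts gave −1.09 and voom −1.08, and both called it, so that the 1 member that voom called in this comparison was Agtr1a and not Agt. HFpEF against control 5w gave 0.36 (edgeR adjusted p = 0.576), and without HFpEF replicate 1 the sign turned, to −0.35. The groups stood in the order HFpEF, control 5w, control 9w, untreated, EMPA + PFD, EMPA and PFD by mean level of Agtr1a, from 19.8 ± 13.5 CPM (SD, n = 3) to 5.17 ± 0.905 CPM (SD, n = 2), and all neighbours overlapped.

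These are whole-tissue libraries, in which fewer cells of a type and less RNA per cell cannot be told apart. Markers of several cell types moved with Agtr1a. For macrophages and leukocytes the summed level over 8 markers was 663, 2131 and 1721 CPM in control 5w, 2993, 637 and 1725 in HFpEF, 404, 325 and 445 in control 9w, and 312, 308 and 459 in EMPA + PFD. It was highest in HFpEF replicate 1 and, within week 5, low in control 5w replicate 1 and HFpEF replicate 2, which were also the lowest in Agtr1a. Lyz2 was the most abundant of them, none was at 0 in all libraries, and 6 of the 8 were lower in EMPA + PFD against HFpEF, as were 5 of the 8 in control 9w against control 5w. Fibroblast markers, with Col3a1 the most abundant, summed to 4505, 44963 and 36468 CPM in control 5w, 17219, 9629 and 12721 in HFpEF, 4324, 3073 and 4606 in control 9w, and 4671, 2095 and 3979 in EMPA + PFD. Within control 5w and within HFpEF these sums ranked the libraries as Agtr1a did, and 5 of the 8 were lower in EMPA + PFD against HFpEF and 6 of the 8 in control 9w against control 5w. Of the Schwann cell and nerve markers 7 of 8 were lower in EMPA + PFD against HFpEF, with sums, in which Pmp22 was the most abundant, of 151, 108 and 151 CPM against 847, 314 and 364. None of these markers was at 0 in all libraries. Their part in the result was not tested.

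Agtr2 encodes the type 2 receptor of angiotensin II. It had 1 count, in control 5w replicate 2, and 0 in every other library, which allows up to 3 counts in each, or 0.215 to 0.400 CPM over the libraries. A difference between groups was not detectable at this depth, and counting error is all that this limit covers. Agtr1b, a second type 1 receptor of rodents, had 0 counts in every library.

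Mas1 encodes the receptor Mas. Its libraries had 6.13 and 8.62 CPM in EMPA and 2.37, 2.99 and 1.67 in EMPA + PFD. In untreated they had 2.85, 4.38 and 3.37 CPM, in PFD 3.61 and 2.06, in control 5w 2.92, 1.55 and 1.83, in HFpEF 2.37, 2.75 and 3.93, and in control 9w 2.59, 3.57 and 3.09. Both EMPA libraries lay above every other library, and the remaining groups overlapped with one another. The 2 EMPA values rested on 46 and 71 counts, and those of EMPA + PFD on 16 to 25.

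Mas1 fell in EMPA + PFD against EMPA, with a log2 fold change of −1.66 (SE 0.36, 95% confidence interval −2.42 to −0.89, edgeR adjusted p = 0.0183). Over the fits that left out 1 library the edgeR adjusted p ran from 0.0109 to 0.140, and the call was lost in 3 of 19. Those were without EMPA replicate 1 (log2 fold change −1.88, edgeR adjusted p = 0.0574), EMPA replicate 2 (−1.39, 0.140) and EMPA + PFD replicate 3 (−1.44, 0.0685). Where an EMPA library was left out, the one that stayed was assumed to vary like the other groups. EMPA against untreated did not pass, with a log2 fold change of 1.05 (SE 0.35, 95% confidence interval 0.31 to 1.80, edgeR adjusted p = 0.370), and neither did the interaction of EMPA and PFD (−1.33, SE 0.51, edgeR adjusted p = 0.472). Mas1 ranked from EMPA, with 7.37 ± 1.77 CPM (SD, n = 2), through untreated, control 9w, HFpEF, PFD and EMPA + PFD to control 5w, with 2.10 ± 0.723 CPM (SD, n = 3). Of the neighbours in that order, EMPA and untreated did not overlap, and the others did.

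In the same comparison, 3 of 8 markers of Schwann cells and nerve were called lower, and so were 2 of 8 of pericytes and smooth muscle and 3 of 5 tested of erythroid cells. The summed Schwann markers, of which Pmp22 was the most abundant, were at 181 and 395 CPM in EMPA and at 151, 108 and 151 in EMPA + PFD. For pericytes and smooth muscle, with Abcc9 as the most abundant, the sums were 1694 and 3538 in EMPA and 1586, 1444 and 1338 in EMPA + PFD, and for erythroid markers, with Hbb as the most abundant, they were 2150 and 420 against 137, 456 and 202. None of these markers found in the files was at 0 in all libraries. EMPA replicate 2 had the higher sum for the first pair of lists and EMPA replicate 1 for the third, while both had high Mas1. Their part in the result was not tested.

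**Figure D1:**
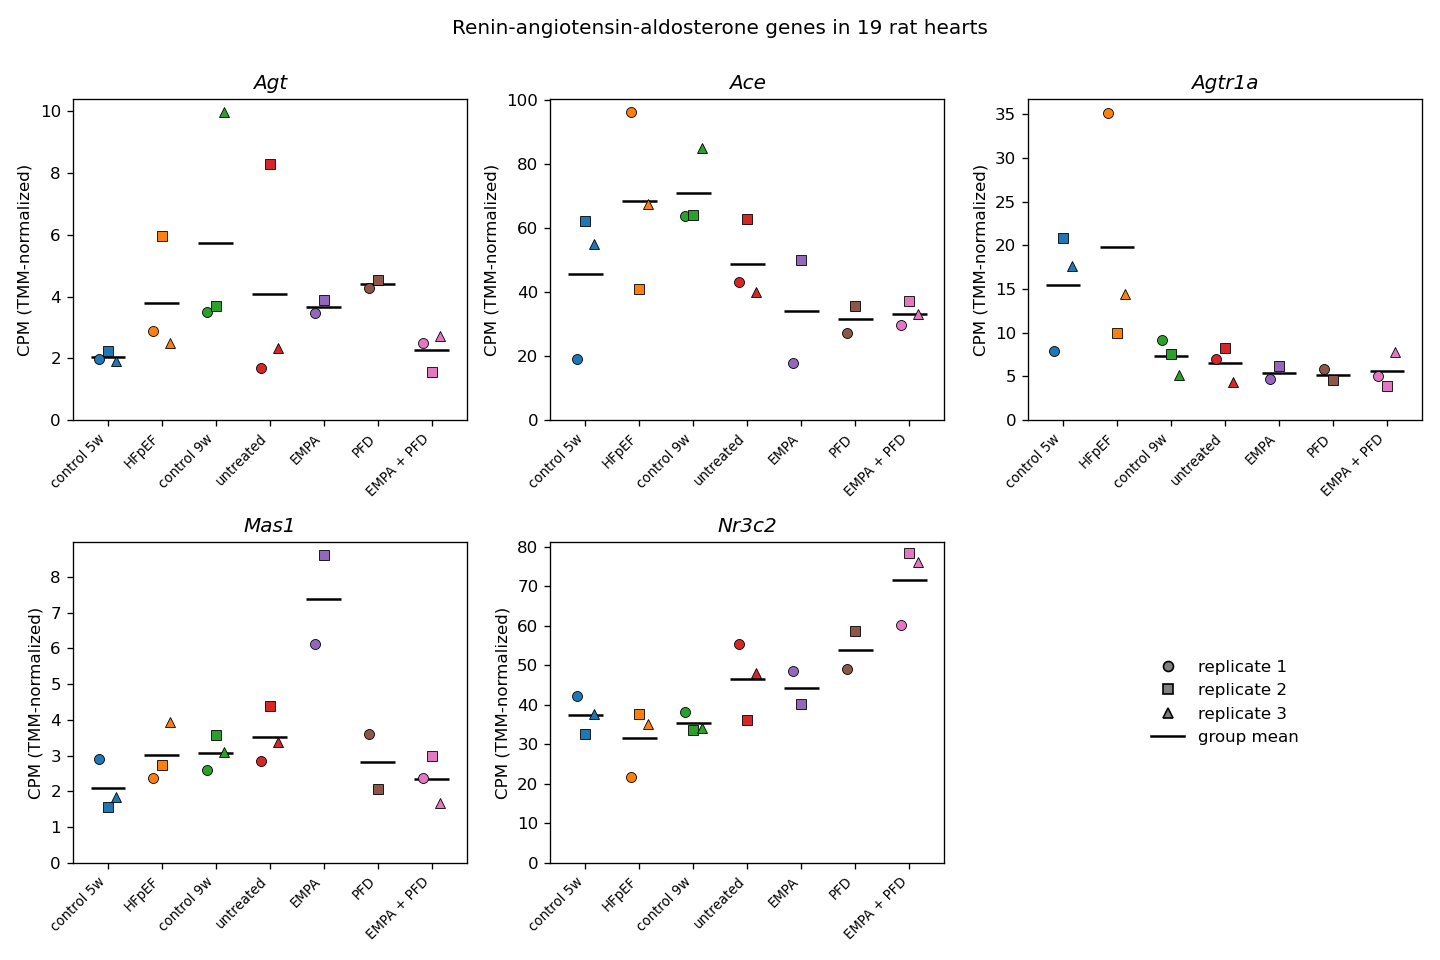
Level of each tested member in CPM (vertical axis) in each library by group (horizontal axis), with marker shape for the replicate number and a bar for the group mean. Nr3c2 is highest in the 3 EMPA + PFD libraries, Mas1 in the 2 EMPA libraries, and Agtr1a in HFpEF replicate 1.

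Nr3c2 encodes the mineralocorticoid receptor, a transcription factor. Its libraries had 60.2, 78.3 and 76.1 CPM in EMPA + PFD. At week 9 the other groups had 38.1, 33.7 and 34.0 in control 9w, 55.3, 36.1 and 48.0 in untreated, 48.6 and 40.1 in EMPA, and 49.0 and 58.5 in PFD. At week 5 they had 42.3, 32.5 and 37.6 in control 5w and 21.8, 37.7 and 35.1 in HFpEF. Each EMPA + PFD library lay above every library of every other group, with PFD replicate 2 the nearest, and HFpEF replicate 1 was the lowest of all. Counts of Nr3c2 ran from 274 to 728 per library.

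Nr3c2 rose in EMPA + PFD against HFpEF, with a log2 fold change of 1.18 (SE 0.20, 95% confidence interval 0.76 to 1.61, edgeR adjusted p = 0.000679). Without HFpEF replicate 1 it was 0.97, under the fold threshold, with an edgeR adjusted p of 0.00295, and the edgeR adjusted p ran from 0.000264 to 0.00426 over the fits with 1 library left out. With the covariate for Eif2s3y counts, thus against HFpEF replicate 2 alone, it was 0.92 (edgeR adjusted p = 0.0320, the highest of the alternatives, whose lowest was 4.36e-07), also under the fold threshold. Against control 9w it rose by 1.02 (SE 0.20, 95% confidence interval 0.59 to 1.44, edgeR adjusted p = 0.00231), just past the fold threshold. That call was lost on the fold threshold without control 9w replicate 2 (0.99) or replicate 3 (0.99) and without EMPA + PFD replicate 2 (0.96) or replicate 3 (0.99), while the edgeR adjusted p stayed between 0.000947 and 0.0141 over the same fits. Upper-quartile scaling gave 0.95, voom 0.97 and no filter 0.99, also under that threshold.

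Against untreated, EMPA + PFD had a log2 fold change in Nr3c2 of 0.62 (SE 0.20, 95% confidence interval 0.20 to 1.04, edgeR adjusted p = 0.0513). It passed neither threshold, although the 3 EMPA + PFD libraries lay above all 3 untreated libraries. Over the alternatives other than leaving out 1 library, the value ran from 0.22 to 0.65. The log2 fold change of EMPA + PFD was 0.69 against EMPA (edgeR adjusted p = 0.0628) and 0.41 against PFD (0.554). Untreated against control 9w gave 0.40 (95% confidence interval −0.03 to 0.82, edgeR adjusted p = 0.305), untreated against HFpEF 0.56 (0.137), and HFpEF against control 5w −0.25 (0.380). The disease effects at week 9 and week 5 differed by 0.65 in log2 fold change (95% confidence interval 0.05 to 1.25, edgeR adjusted p = 0.113), which did not pass. Control 9w against control 5w was −0.09 (95% confidence interval −0.51 to 0.34, edgeR adjusted p = 0.760).

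The order of mean Nr3c2 was EMPA + PFD at 71.5 ± 9.87 CPM (SD, n = 3), PFD at 53.7 ± 6.77 (SD, n = 2), untreated at 46.5 ± 9.67 (SD, n = 3), EMPA at 44.3 ± 6.03 (SD, n = 2), control 5w at 37.5 ± 4.90 (SD, n = 3), control 9w at 35.3 ± 2.47 (SD, n = 3) and HFpEF at 31.5 ± 8.51 (SD, n = 3). A gap between neighbours was seen at EMPA + PFD and PFD, and all other neighbours overlapped.

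Markers of cardiomyocytes moved with Nr3c2. Their summed level over 8 markers, of which Myh6 was the most abundant and none was at 0, was 70864, 96950 and 79943 CPM in EMPA + PFD, 11766, 24457 and 35159 in HFpEF and 36679, 43440 and 39871 in control 9w. HFpEF replicate 1, the lowest library in Nr3c2, was also the lowest in this sum. In EMPA + PFD 7 of the 8 markers were higher against HFpEF and 3 of 8 against control 9w. The sums were 72071, 20378 and 61287 in untreated, 47961 and 36464 in EMPA, 65941 and 75610 in PFD, and 82895, 34279 and 38408 in control 5w. Outside EMPA + PFD, sums in its range were found in PFD replicate 2, untreated replicate 1 and control 5w replicate 1, which had 58.5, 55.3 and 42.3 CPM of Nr3c2. Their part in the result was not tested.

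**Figure D2:**
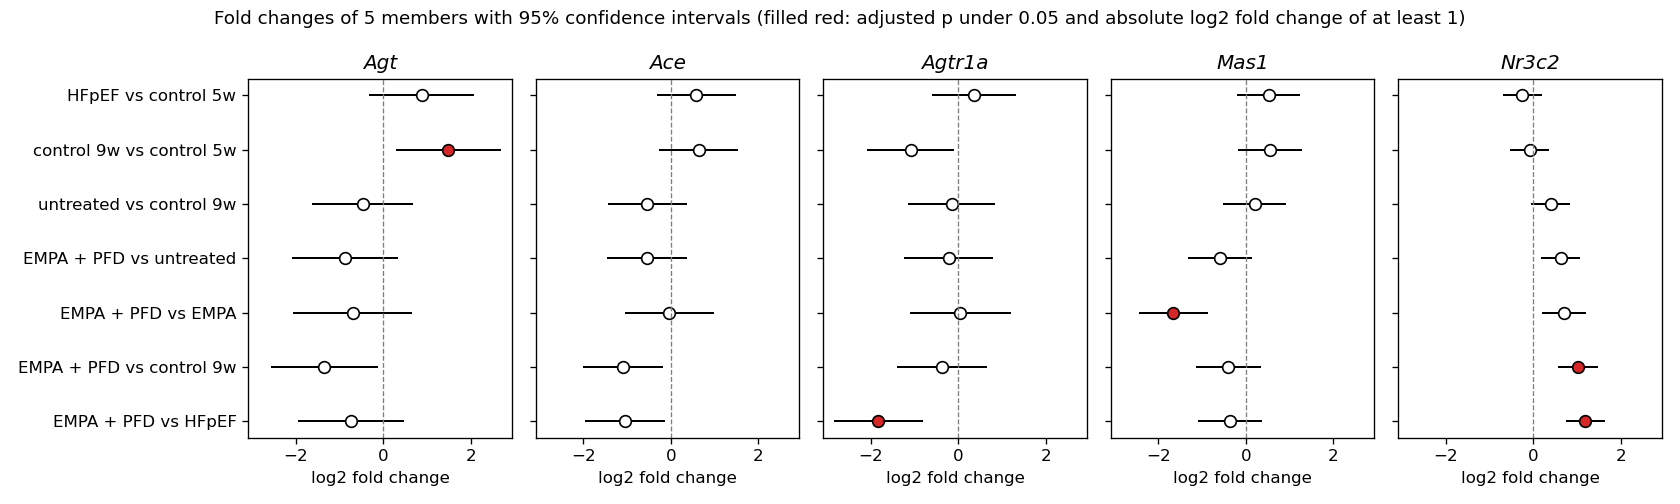
Log2 fold change (horizontal axis) of each tested member in 7 comparisons (vertical axis), with lines for 95% confidence intervals and filled points where edgeR called the gene. The 5 filled points are Agt in control 9w against control 5w, Mas1 in EMPA + PFD against EMPA, Nr3c2 in EMPA + PFD against control 9w and against HFpEF, and Agtr1a in EMPA + PFD against HFpEF.

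Under upper-quartile scaling the median log2 fold change of all genes in EMPA + PFD against HFpEF moved from −0.09 to −0.20. Nr3c2 and Agtr1a were called there under both scalings, and Ace under upper-quartile scaling only.

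Over the 19 libraries, members were related to one another to varying degrees, given here as a description of libraries that share groups and sequencing depth. Pearson's r of log2 CPM was −0.72 between Agtr1a and Nr3c2, −0.66 between Ace and Nr3c2, 0.56 between Ace and Agtr1a, and 0.29 between Agt and Mas1. Among 10796 genes, the ones most like Nr3c2 included Paip2 (r = 0.95) and Fbxo21 (r = 0.95). Those most like Agtr1a included Ifi30 (r = 0.94) and Fcer1g (r = 0.92), and those most like Ace were Gprc5a (r = 0.89), Htra1 (r = 0.88) and Igfbp4 (r = 0.88). For Agt they were Fras1 (r = 0.85), Usp6nl (r = 0.82) and Ica1 (r = 0.77), and for Mas1 they were Cryzl1 (r = 0.77), Madd (r = 0.77) and Tead3 (r = 0.76).

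Promoter sequences from RefSeq, build GRCr8, were matched for 4 of the 6 members, Ace, Agtr1a, Agtr2 and Mas1, and not for Agt and Nr3c2. Windows of 250 bases before each start were searched on both strands for the TATA box letters TATAAA, the GC box letters GGGCGG and the steroid receptor letters AGAACA. Ace and Agtr1a held both TATAAA and GGGCGG, and Agtr2 and Mas1 held neither. AGAACA was in none of the 4 windows. Of 33469 promoters of that length, 12.9% held TATAAA, 30.5% GGGCGG and 17.5% AGAACA. The GC content was 69.2% for Ace, 60.8% for Agtr1a, 53.2% for Mas1 and 38% for Agtr2, with a median of 51.2% over all promoters. A match describes letters in the window and is no evidence of binding. The last 120 bases before the start are shown for both called receptors that matched and for Ace, which held the same pair of motifs as Agtr1a. Ace lies on the plus strand at chr10:91410009-91410128, Agtr1a on the minus strand at chr17:34435433-34435552 and Mas1 on the plus strand at chr1:50427970-50428089, and capitals mark TATAAA and GGGCGG in either direction.
Ace: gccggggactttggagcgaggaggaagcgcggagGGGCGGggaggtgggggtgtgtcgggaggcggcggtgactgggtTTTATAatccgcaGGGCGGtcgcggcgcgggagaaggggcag
Agtr1a: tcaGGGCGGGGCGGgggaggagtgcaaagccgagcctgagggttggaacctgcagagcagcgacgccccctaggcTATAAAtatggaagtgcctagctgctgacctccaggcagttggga
Mas1: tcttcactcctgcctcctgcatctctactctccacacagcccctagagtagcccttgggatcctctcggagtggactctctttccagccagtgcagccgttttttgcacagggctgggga

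Around the members, 80 further genes of the pathway were listed with earlier results of these data known. Of these, 77 were in the files and 66 were tested. They form 5 lists, which hold peptidases that make or break angiotensins, receptors and receptor partners, the supply of corticosteroids and their receptors, target genes of corticosteroid receptors, and genes that respond to angiotensin II. In HFpEF against control 5w, 12 of the 66 were higher and 2 lower beside 8.69% of all genes called, with a median log2 fold change of 0.40 against 0.02 over all genes. This count of 14 was 8, 9 and 7 without control 5w replicates 1, 2 and 3. In these fits 731, 919 and 799 of all 12388 genes were called, against 1076 in the main fit. With only the libraries compared the count was 5, beside 429 of all genes. In control 9w against control 5w, 10 were higher and 8 lower beside 14.7% of all genes, with a median of −0.01 against −0.04. The count of 18 was 11 without control 5w replicate 2 or 3 or control 9w replicate 1 or 2. All genes called were 1332, 1440, 1421 and 1213 in these fits. In untreated against control 9w edgeR called 0 of 66 beside 0.912% of all genes, with 19 at an unadjusted p under 0.05, 4 by DESeq2 and 13 by voom, which called 298 and 1037 of all 12388 genes. The edgeR count became 2 without untreated replicate 2 or EMPA + PFD replicate 1 or 2 and 1 without control 9w replicate 3. All genes called by edgeR were 412, 149, 105 and 118 in these fits.

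In EMPA + PFD against untreated, 2 of the 66 genes were higher and 2 lower beside 3.82% of all genes, with a median log2 fold change of −0.15 against −0.03 over all genes. That count of 4 was 0 without untreated replicate 2 or EMPA + PFD replicate 2 or 3, beside 83, 59 and 159 of all genes. It was 2 without control 5w replicate 3, HFpEF replicate 3, control 9w replicate 1 or untreated replicate 3, beside 370, 417, 361 and 210. Without EMPA + PFD replicate 1 it was 8, beside 793 of all genes. Against HFpEF, 6 were higher and 14 lower beside 22.7% of all genes, with a median of −0.37 against −0.09, and the count of 20 was 13 without HFpEF replicate 1 or EMPA + PFD replicate 2. Against control 9w, 2 were higher and 7 lower beside 12.1% of all genes, and that count of 9 was 5 without control 9w replicate 1, 3 without control 9w replicate 2 and 4 without EMPA + PFD replicate 2. No count of all genes is set beside these refits against HFpEF and control 9w, so their drops are not read against a background. Against control 9w, all genes called also fell without EMPA + PFD replicate 2, as given above.

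By list, in control 9w against control 5w, where 14.7% of all genes were called, 2 of 15 tested peptidases were called (Enpep at a log2 fold change of 1.07 and Anpep at −1.17), 1 of 5 receptors and partners (Bdkrb2, a bradykinin receptor, at 1.94), and 1 of 6 genes of corticosteroid supply (Star at 1.16). Among angiotensin II response genes 6 of 21 were called, all lower, which were Acta1 (−2.79), Ccl2 (−1.13), Cybb (−3.40), Lox (−3.66), Postn (−5.17) and Rcan1 (−1.14). Postn, which is also among the fibroblast markers, had 45.6, 4079 and 3528 CPM in control 5w and 46.4, 35.4 and 130 in control 9w. Lox had 9.70, 146 and 113 in control 5w and 5.87, 4.55 and 10.7 in control 9w. In both genes control 5w replicate 1 lay within the range of control 9w, and the other control 5w libraries lay far above it. In the same comparison 6 of 8 fibroblast markers and 5 of 8 macrophage and leukocyte markers were lower, and their part in the result was not tested. Of the called genes named here, Bdkrb2, Acta1, Cybb and Lox stayed called in every fit with 1 library left out. Enpep was lost without control 5w replicate 2 or 3 or control 9w replicate 2 (0.88 to 1.38 over all such fits), Anpep without control 5w replicate 2 or 3 or control 9w replicate 1 or 2 (−1.47 to −0.93), and Postn without control 9w replicate 2 (−5.96 to −4.66). Star held in 4 of 19 such fits, and Ccl2 and Rcan1 in 7 of 19 each.

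Target genes of corticosteroid receptors, which both the mineralocorticoid and the glucocorticoid receptor can act on, held most of the calls at week 5. In HFpEF against control 5w 10 of 19 were called (9 higher and 1 lower) beside 8.69% of all genes, with a median log2 fold change of 1.03, and in control 9w against control 5w 8 of 19 (7 higher and 1 lower) beside 14.7% of all genes, with a median of 0.94. The list was chosen with earlier results of these data known, so these shares are a description and not a test. Part of the rise in HFpEF lay in replicates 1 and 3, the libraries without Eif2s3y counts. The levels in HFpEF replicates 1, 2 and 3 were 169, 38.8 and 121 CPM for Fkbp5, 96.9, 2.48 and 31.3 for Mt2A, 606, 109 and 383 for Errfi1, and 436, 168 and 402 for Tsc22d3. Replicate 2 was the lowest in each and lay within the range of control 5w in Fkbp5 and Mt2A. The covariate for Eif2s3y counts, which sets replicate 2 alone against control 5w, restates this, with log2 fold changes of −0.13 for Fkbp5 and −0.74 for Mt2A.

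Cell-type markers moved in that comparison too. Of 8 markers each, 2 were lower for cardiomyocytes (median log2 fold change −1.19), 2 were higher for Schwann cells and nerve (median 2.04), 2 were higher for endothelial cells (median 0.73) and 2 were lower for atrial and conduction tissue (median −1.58). Of mast cell markers 1 of 7 tested was higher and of adipocyte markers 1 of 5. The called mast cell marker is also among the listed peptidases, so it counts in both lists. Its call held in 9 of 19 fits with 1 library left out. The mast cell sums, in which Kit was the most abundant and Mcpt1 was at 0 in all libraries, were 45.6, 35.1 and 34.9 CPM in control 5w and 56.9, 46.7 and 40.5 in HFpEF. The adipocyte sums, with Fabp4 as the most abundant, were 954, 556 and 634 against 708, 3029 and 1991. Fabp4 alone had 932, 541 and 618 CPM against 648, 3003 and 1958, so these sums mostly give its level and not that of the other adipocyte markers. HFpEF replicate 1, the highest library of its group in Fkbp5, Mt2A, Errfi1 and Tsc22d3, had the lowest cardiomyocyte sum of all libraries, 11766 CPM, and the highest Schwann sum, 847 CPM. The Schwann sums were 196, 429 and 364 CPM in control 5w and 314 and 364 in HFpEF replicates 2 and 3. Their part in the result was not tested.

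Sgk1, a kinase that acts on sodium channels, had 50.1, 61.4 and 61.3 CPM in control 5w, 251, 221 and 282 in HFpEF, 479, 536 and 330 in control 9w, and 220, 230 and 275 in untreated. The 3 control 5w libraries lay below all others, and those of control 9w lay above all others. Sgk1 rose in HFpEF against control 5w by a log2 fold change of 2.12 (SE 0.22, edgeR adjusted p = 0.000184) and in control 9w against control 5w by 2.96 (SE 0.23, edgeR adjusted p = 5.84e-06).

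Per1, Dusp1 and Errfi1, like Sgk1, were called in both of these comparisons in every fit with 1 library left out. Their log2 fold changes were 1.88, 2.18 and 2.90 in HFpEF and 2.87, 2.57 and 1.70 in control 9w, each against control 5w. Of the other called targets in HFpEF, Fkbp5 held in 7 of 19 such fits, Cdkn1a and Mt2A in 15 each. Tns1 held in 16, Lcn2 in 17 and Tsc22d3 in 18. In control 9w, Fkbp5, Tsc22d3 and Rgs2 held in 13, 14 and 15, and Lcn2 in all 19. With the covariate for Eif2s3y counts, HFpEF replicate 2 alone against control 5w, Per1 and Errfi1 were not called, at log2 fold changes of 1.07 and 1.15 (edgeR adjusted p of 0.0585 and 0.0778, the highest of the alternatives, whose lowest were 1.85e-07 and 1.54e-08). Errfi1 was also not called with only the libraries compared, at 2.90. Nr3c2 had log2 fold changes of −0.25 and −0.09 in these comparisons, and Nr3c1, the glucocorticoid receptor, of 0.17 and −0.05, with edgeR adjusted p of 0.330 and 0.758. Over all libraries Nr3c1 ran from 188 to 262 CPM, and it did not pass the test over 7 groups (edgeR adjusted p = 0.253).

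In untreated against control 9w, where none of the 66 genes was called by edgeR, the median log2 fold change of these 19 targets was −0.33 against 0.01 over all genes. Sgk1 had a log2 fold change of −0.89 in untreated against control 9w (SE 0.21, edgeR adjusted p = 0.0459), which missed the fold threshold, with all 3 untreated libraries below all 3 of control 9w. In EMPA + PFD Sgk1 had 232, 127 and 155 CPM, and against control 9w it fell by 1.39 (SE 0.21, edgeR adjusted p = 0.000775). Tested as a difference between the disease effects at week 9 and week 5, 12 of the 66 genes were called (2 higher and 10 lower) beside 12% of all genes, among them 10 of 19 corticosteroid receptor targets with a list median of −1.54 against −0.02 over all genes. The comparisons share the controls of each week. The median of the 19 targets was 0.94 in control 9w against control 5w and −0.09 in untreated against HFpEF. The lists were chosen with earlier results of these data known, so these shares in the difference between weeks are a description and not a test. In that difference 3 of 8 endothelial markers were lower (median −1.01), 3 of 5 tested erythroid markers were lower (median −3.29) and 2 of 8 cardiomyocyte markers were higher (median 1.57). There was 1 call each for pericytes and smooth muscle and for atrial and conduction tissue, both higher, and for adipocytes, lower. The endothelial sums in untreated were 3039, 3535 and 3304 CPM. The erythroid sums were 1665, 1024 and 1610 CPM in control 5w, 1663, 1315 and 3644 in HFpEF, 1445, 1732 and 1114 in control 9w and 221, 175 and 287 in untreated. The markers' part in the result was not tested.

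**Figure D3:**
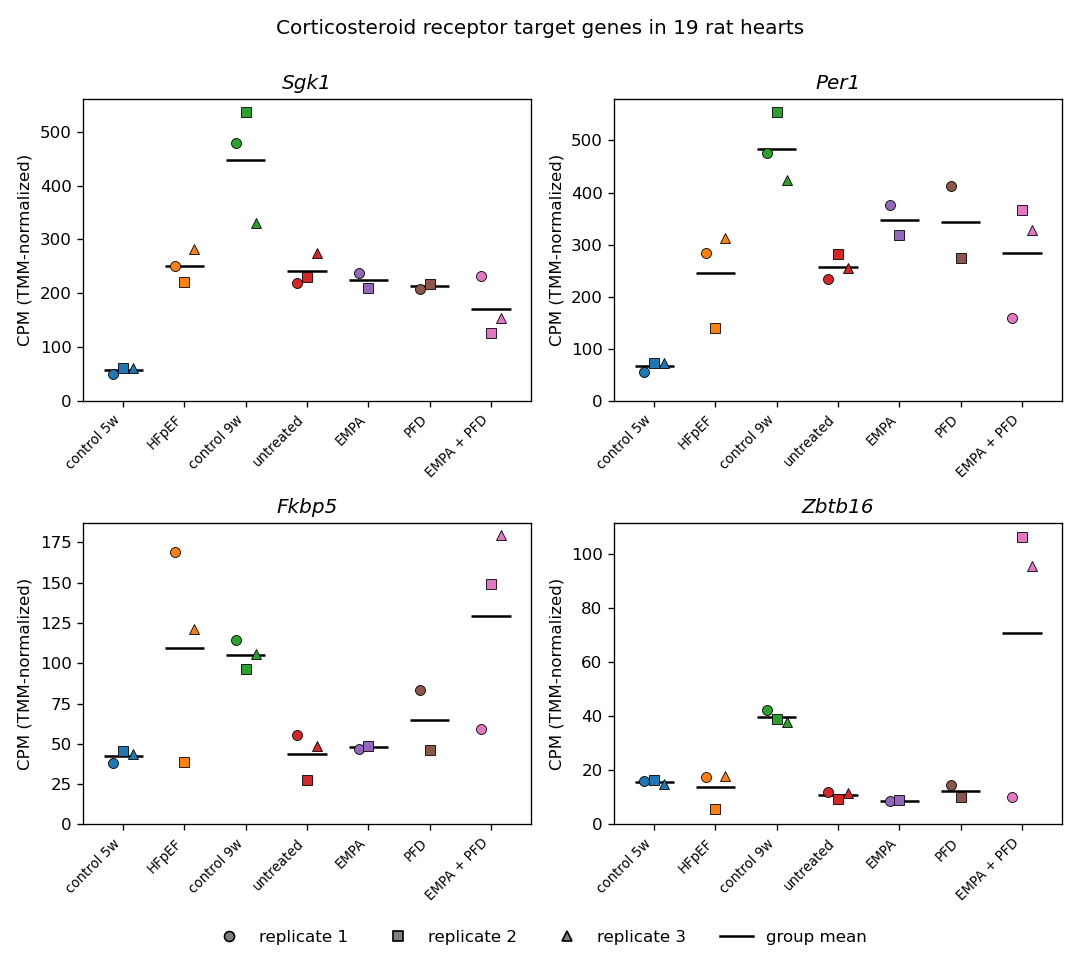
Level of Sgk1, Per1, Fkbp5 and Zbtb16 in CPM (vertical axis) in each library by group (horizontal axis), with marker shape for the replicate number and a bar for the group mean. Sgk1 and Per1 are lowest in control 5w, and EMPA + PFD replicate 1 lies apart from replicates 2 and 3 in Fkbp5 and Zbtb16.

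In EMPA + PFD against untreated, the 4 called genes were Zbtb16 (log2 fold change 2.68) and Fkbp5 (1.56) among the corticosteroid receptor targets, Enpep (−1.04) among the peptidases and Cyba (−1.03) among the angiotensin II response genes. Zbtb16 had 10.1, 106 and 95.4 CPM in EMPA + PFD and 12.1, 9.34 and 11.7 in untreated. EMPA + PFD replicate 1 lay within the untreated range, and replicates 2 and 3 lay above every library of the other groups. Fkbp5 had 59.2, 149 and 179 CPM in EMPA + PFD and 55.3, 27.3 and 48.8 in untreated, so that replicate 1 was again the nearest to untreated. The call of Zbtb16 was lost without untreated replicate 2 or 3 or EMPA + PFD replicate 2 or 3, over log2 fold changes from 2.27 to 3.21. Cyba was lost without untreated replicate 2 or EMPA + PFD replicate 2 or 3 (−1.18 to −0.76). Fkbp5 and Enpep held in 9 and 8 of 19 such fits (1.28 to 1.93 and −1.23 to −0.88). Over the other alternatives the log2 fold changes ran from 2.48 to 4.27 for Zbtb16 and 1.31 to 3.47 for Fkbp5. For Enpep they ran from −1.82 to −1.02, and for Cyba from −1.13 to −0.74.

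Markers moved in EMPA + PFD against untreated as well. Of 8 endothelial markers 1 was called lower and 6 had an unadjusted p under 0.05 (median log2 fold change −0.73). Of 8 atrial and conduction markers 2 were lower and 1 higher (median −4.88), 1 of 8 cardiomyocyte markers was higher (median 0.82) and 1 of 5 tested erythroid markers was higher. Untreated replicate 2, by far the highest of its group in the atrial and conduction sum and the lowest in the cardiomyocyte sum, was also the highest in Cyba, with 44.2 CPM against 25.6 and 29.9. What part these markers had in the result was not tested.

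Enzymes next to the members were measured as well. Enpep, an aminopeptidase that breaks angiotensin II down, had 151, 92.7 and 115 CPM in EMPA + PFD against 225, 231 and 284 in untreated, without overlap. Hsd11b2, which shields the mineralocorticoid receptor from glucocorticoids, had 101 counts in HFpEF replicate 1 and 1 to 21 counts in every other library. Cyp11b2, the aldosterone synthase, had 1 count in all, and Cyp11b1, which makes corticosterone, had 0 in every library.

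In EMPA + PFD against HFpEF, Hsd11b2 fell by a log2 fold change of 3.56 (SE 0.82, edgeR adjusted p = 0.00357), and without HFpEF replicate 1 by 2.15, still called. With the covariate for Eif2s3y counts, thus against HFpEF replicate 2 alone, it was −1.02 and not called (edgeR adjusted p = 0.444, the highest of the alternatives, whose lowest was 0.000483). The EMPA + PFD libraries had 2, 2 and 3 counts, none above the floor of detection, so this fold change is against a group at or under that floor. In this comparison, where 22.7% of all genes were called, 2 of 15 peptidases were called (both lower), 1 of 5 receptors and partners (higher), 1 of 6 genes of corticosteroid supply (lower), 5 of 19 corticosteroid receptor targets (3 higher and 2 lower) and 11 of 21 angiotensin II response genes (2 higher and 9 lower). Cyba, a subunit of NADPH oxidase, fell by 2.03 (SE 0.25, edgeR adjusted p = 0.000176) and stayed called in every fit with 1 library left out. Its libraries had 17.6, 13.9 and 17.6 CPM in EMPA + PFD and 81.4, 58.4 and 60.9 in HFpEF, without overlap. Of 11 called pathway genes followed in this way, 6 stayed called in every such fit. Cybb held in 17 of 19, and Errfi1 and Postn, the latter also a fibroblast marker, in 14 each.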

How the data were processed

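The authors deposited counts, whole numbers per gene symbol from reads trimmed with Trim Galore, aligned to rn6 with HISAT2 and counted with htseq-count, without normalization. The 19 libraries were 1 heart each and were used under their labels. Replicate numbers did not pair libraries across groups.

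Counts were normalized by TMM and filtered by filterByExpr. The test was the quasi-likelihood F test of edgeR 4.0.16 (R 4.3.3), fitted as 1 model of 7 groups that share 1 estimate of spread (12 residual degrees of freedom). Each of 13 comparisons was adjusted by Benjamini-Hochberg over all tested genes. DESeq2 1.42.0 and limma 3.58.1 (voom with sample quality weights) ran on the same genes. The other alternatives were upper-quartile and relative log expression scaling, no filter, a filter of 10 counts in every library, only the libraries compared, adjusted p alone, a replicate block, a covariate for Eif2s3y counts and omission of each library.

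The members and the gene lists were chosen with earlier results of these data known. Named besides the members are pathway genes called in HFpEF or control 9w against control 5w, untreated against control 9w or EMPA + PFD against untreated, the 2 most abundant of each list, Agtr1b, Hsd11b2, Nr3c1 and Cyp11b2, and, from the 3 genes per member with the highest Pearson's r of log2 CPM (prior count 2), those that could be printed. Some genes that these rules picked are not reported here. Cyp11b1 and RT1-CE16 were named after their values were seen. The 2 most abundant tested genes were Ctsd and Ctsa of the peptidases, Mtus1 and Rnpep of the receptors and partners, Nr3c1 and Hsd11b1 of corticosteroid supply, Dusp1 and Tns1 of the targets, and Myh7 and Nppa of the response genes. The floor of detection was 3 counts in a library, for counting error only.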

Additional observations from a re-analysis of the deposited data

Results flagged for a closer look

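Of 66 tested genes of the pathway lists 12 were called, beside 12% of all genes, in the difference between the disease effects of both weeks, and 10 of them are named here. For these 10 genes the effect of disease at week 9 (untreated against control 9w) differed from that at week 5 (HFpEF against control 5w) by the quasi-likelihood F test of edgeR, adjusted by Benjamini-Hochberg over all genes. The differences in log2 fold change, week 9 minus week 5, were −2.49 for Dusp1, −2.93 for Errfi1, −2.64 for Fkbp5, −1.94 for Lcn2, −5.02 for Mt2A, −2.80 for Per1, 2.14 for Rcan1, −3.02 for Sgk1, 1.11 for Tns1 and −2.31 for Tsc22d3. In control 9w against control 5w edgeR called 18 of the 66 genes, beside 14.7% of all genes. In untreated against HFpEF it called 0, beside 0.194% of all genes, with 21 at an unadjusted p under 0.05. The median log2 fold change of the 19 tested corticosteroid receptor targets was 0.94 and −0.09 in these comparisons. The difference between weeks thus holds the change in controls as well as any change in diseased hearts. In 7 of the 10 genes the difference was called in every fit with 1 library left out. The exceptions were Mt2A (lost without control 5w replicate 1, HFpEF replicate 1, control 9w replicate 3 or untreated replicate 1 or 3, −5.57 to −3.65 over all such fits), Rcan1 (lost without HFpEF replicate 2, control 9w replicate 1 or 2 or untreated replicate 1 or 3, 1.66 to 2.55) and Tns1 (lost without untreated replicate 1, at 0.999). All untreated libraries and HFpEF replicates 1 and 3 had 0 counts of Eif2s3y, and no control library did. With a covariate for Eif2s3y counts, which here gives what leaving out HFpEF replicate 2 gives, 9 of the 10 were still called, and Rcan1, at 1.91, was not. The libraries that then remain differ in Eif2s3y as they do in disease, so these cannot be told apart.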

How the results depend on the processing

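Counts of called genes were recomputed for 21 results under 31 alternatives, and 551 of 649 values lay within 1.5 times the first count. For 96 single log2 fold changes, 2527 of 2877 values kept their direction and their side of the threshold, and 23 changed sign. Members called stayed at 0 under all alternatives in HFpEF against control 5w, untreated against control 9w, EMPA + PFD, EMPA or PFD against untreated, EMPA + PFD against PFD and the interaction. The cause of the changes below was not tested, except that fits on fewer libraries or without the fold threshold have other limits by construction.

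DESeq2 called 2 members in EMPA + PFD against control 9w and 1 in untreated against HFpEF, and 15, 7 and 4 pathway genes in EMPA + PFD against control 9w, EMPA + PFD against untreated and untreated against control 9w, where it called 1617, 715 and 298 of all 12388 genes. With the adjusted p alone, pathway genes called were 19 in EMPA + PFD against control 9w and 11 in EMPA + PFD against untreated. They were 28 in control 9w against control 5w and 1 in untreated against control 9w. No share of all genes under this rule is given here, so these counts are not read against a background.

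With voom, members called were 0 in EMPA + PFD against control 9w, 1 in untreated against HFpEF and 1 in the difference between weeks, and 5 members differed among the 7 groups. Pathway genes called were 15, 28, 23 and 13 in EMPA + PFD against control 9w, control 9w against control 5w, the difference between weeks and untreated against control 9w, where voom called 1958, 2716, 2559 and 1037 of all 12388 genes. The log2 fold change turned to 0.0209 for Agt and 0.30 for Agtr1a in EMPA + PFD against untreated, −0.23 for Agtr1a in HFpEF against control 5w and 0.0385 for Nr3c2 in control 9w against control 5w.

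The covariate for Eif2s3y counts rests on HFpEF, the only group with libraries of both kinds, and leaves HFpEF replicate 2 alone against control 5w or EMPA + PFD. With it, members called were 0 in EMPA + PFD against HFpEF, 2 in EMPA + PFD against control 9w, 2 in control 9w against control 5w and 1 in untreated against HFpEF, and pathway genes called were 10 in EMPA + PFD against HFpEF and 7 in HFpEF against control 5w. Both counts of pathway genes rest on HFpEF replicate 2 alone. No share of all genes is set beside them, so they are not read against a background. Signs turned in HFpEF against control 5w for Ace (−0.15), Agtr1a (−0.64), Nr3c2 (0.00842), Fkbp5 (−0.13) and Mt2A (−0.74). They also turned in untreated against control 9w for Agt (0.68) and in EMPA + PFD against untreated for Ace (0.45) and Agtr1a (1.11). In EMPA + PFD against HFpEF they turned for Cybb (0.32) and Errfi1 (0.54).

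Members called in control 9w against control 5w were 0 under upper-quartile scaling, with no filter and with the replicate block, and those in EMPA + PFD against control 9w were 0 with no filter. The block also gave 2 pathway genes in EMPA + PFD against untreated, beside 380 of all 12388 genes. With only the libraries compared, 2 members were called in EMPA + PFD against control 9w. Pathway genes called were then 0 in EMPA + PFD against untreated, 5 in HFpEF against control 5w and 1 in untreated against control 9w. Of all 12388 genes, 5, 429 and 97 were called in these.

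A pair of alternatives was chosen after seeing the data. The first omitted control 9w replicate 3 and untreated replicate 2, which had the highest atrial and conduction sums. Members called were then 0 in EMPA + PFD against control 9w and 0 in control 9w against control 5w. The difference between weeks and untreated against HFpEF had 1 each. Pathway genes called were 0 in EMPA + PFD against untreated and 4 in untreated against control 9w. Of all 12388 genes, 82 and 383 were called there. The log2 fold change of Agt in EMPA + PFD against untreated was 0.17. Omitting HFpEF replicate 1 and untreated replicate 2, which had the lowest cardiomyocyte sums, gave 1 member in EMPA + PFD against HFpEF, 3 in EMPA + PFD against control 9w, 2 in control 9w against control 5w and 1 in the difference between weeks. It gave 0 pathway genes in EMPA + PFD against untreated and 4 in untreated against control 9w. Of all 12388 genes, 145 and 467 were called there, against 473 and 113 in the main fit. Log2 fold changes were 0.17 for Agt in EMPA + PFD against untreated and −0.35 for Agtr1a in HFpEF against control 5w.

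With each library left out in turn, members called ran from 0 to 2 in control 9w against control 5w, 0 to 1 in EMPA + PFD against EMPA, 0 to 2 in EMPA + PFD against control 9w, 0 to 1 in untreated against HFpEF, 1 to 3 in EMPA + PFD against HFpEF and 0 to 1 in the difference between weeks. Pathway genes called ran from 7 to 16 in HFpEF against control 5w, 11 to 19 in control 9w against control 5w, 0 to 2 in untreated against control 9w, 0 to 8 in EMPA + PFD against untreated, 3 to 12 in EMPA + PFD against control 9w and 13 to 23 in EMPA + PFD against HFpEF. No count of all genes is set beside these ranges, so they are not read against a background. Log2 fold changes that turned sign ran from −0.35 to 0.68 for Agtr1a in HFpEF against control 5w, −0.18 to 0.0175 for Nr3c2 in control 9w against control 5w, −1.52 to 0.21 for Agt and −0.36 to 0.0665 for Agtr1a in untreated against control 9w, and −1.24 to 0.17 for Agt in EMPA + PFD against untreated. A library left alone in its group was assumed to vary like the other groups.

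Depth limits the members with few counts. Agt had 13 to 102 counts per library and Mas1 16 to 71, and Agtr2 lay under 3 counts in every library. The groups hold 2 or 3 hearts, libraries with and without Eif2s3y counts were not balanced over them, and cell types were not separated.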
